A study of Rattus norvegicus with 21 samples.

Results

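The circadian clock genes described here are the 10 transcripts Per1, Per2, Per3, Cry1, Cry2, Nr1d1, Nr1d2, Dbp, Tef and Clock, chosen by gene symbol in the annotation of the Affymetrix Rat Gene 1.0 ST array. Each gene had exactly 1 probe set, so the members are 10 of the 14506 genes that a probe set names alone and 10 of the 29214 probe sets of the value table. Expression was measured on 21 arrays, namely 16 pituitary lesions of rats with the MENX syndrome and 5 normal pituitaries of wild-type rats. The mutant rats were homozygous for a germline mutation of p27Kip1, an inhibitor of the cell cycle (the labels write the gene as Cdknb1), were 7 to 12 months old and develop multifocal adenomas of the anterior lobe. The wild-type rats were all 6 months old and of the same mixed Sprague–Dawley white eye/Wistar–Kyoto strain, and the labels name no treatment. The ages of the groups do not overlap, so genotype, tumor and age cannot be told apart. The lesions carry 9 sample numbers, read here as 9 rats (6 female and 3 male), of which 4 gave 1 lesion, 3 gave 2 and 2 gave 3. They are called adenomas 1 to 9 below, with lesions numbered by the suffix in the labels, and the pituitaries are called wild type 1 to 5 (2 female and 3 male). The study's text counts more rats than the labels give numbers, so it is not settled that each number is a single rat. It also places the mutant rats at the young end of the ages in the labels, and the ages used here are those of the labels. The sources used here give no time of day for tissue collection.

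In mammals the clock is a feedback loop of transcription that runs over about a day in nearly every cell. CLOCK and its partner BMAL1 bind E-box elements and switch on the Per and Cry genes, whose proteins return to the nucleus and block CLOCK and BMAL1. The same pair drives Nr1d1 and Nr1d2, the REV-ERB receptors that repress Bmal1, and Dbp and Tef, transcription factors that carry the rhythm to D-box elements of other genes. In rodent tissues Nr1d1 and Dbp peak ahead of Per2 and Cry1, Bmal1 peaks at the opposite time, and Clock itself oscillates little. The loop is also open to outside signals: Per1 is an immediate early gene of cAMP signaling, and Per1 and Per2 are induced by glucocorticoids. The level of these transcripts in a gland therefore depends on the time of day.

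The RefSeq table used here holds the sequence before the start of transcription for 9 members, all but Cry1, in 11 windows of 250 bases on build GRCr8. Both strands were searched for the E-box CACGTG, the E-box variant CACGTT, the D-box (TTATGTAA or TTACGTAA), the REV-ERB and ROR element TAGGTCA and the cAMP response element TGACGTCA. The following windows are shown because they carry one of these elements, each 5′ to 3′ on the strand of its gene and ending at the base before the start site, with the matched letters in capitals. They are the Per2 window (chr9:99496994-99497243, minus strand), the first of 2 Nr1d1 windows (chr10:84229455-84229704, minus strand), the Tef window (chr7:115206577-115206826, plus strand) and, for the partner of CLOCK, the Bmal1 window (chr1:176766078-176766327, plus strand).
Per2: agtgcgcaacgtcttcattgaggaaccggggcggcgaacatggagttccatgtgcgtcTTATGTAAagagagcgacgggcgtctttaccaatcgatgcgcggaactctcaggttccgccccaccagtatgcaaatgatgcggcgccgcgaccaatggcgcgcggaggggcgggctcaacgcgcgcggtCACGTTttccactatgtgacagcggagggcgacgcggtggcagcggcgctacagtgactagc
Nr1d1: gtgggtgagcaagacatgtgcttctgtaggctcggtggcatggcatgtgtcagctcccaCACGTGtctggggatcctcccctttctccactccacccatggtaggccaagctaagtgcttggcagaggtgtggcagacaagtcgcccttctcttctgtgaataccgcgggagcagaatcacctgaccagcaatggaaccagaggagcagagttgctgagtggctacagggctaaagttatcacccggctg
Tef: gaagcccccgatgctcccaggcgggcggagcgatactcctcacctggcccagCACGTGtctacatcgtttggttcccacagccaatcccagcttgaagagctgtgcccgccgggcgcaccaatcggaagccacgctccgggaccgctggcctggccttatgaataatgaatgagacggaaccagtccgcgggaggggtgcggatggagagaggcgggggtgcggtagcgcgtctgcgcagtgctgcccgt
Bmal1: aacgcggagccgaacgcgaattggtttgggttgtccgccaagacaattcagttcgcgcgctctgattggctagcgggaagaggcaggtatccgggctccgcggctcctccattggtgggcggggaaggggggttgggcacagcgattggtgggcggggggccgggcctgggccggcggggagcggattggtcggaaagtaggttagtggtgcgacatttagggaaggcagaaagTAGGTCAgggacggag
In the Per2 window CACGTT lay 62 bases and TTATGTAA 192 bases before the start site. The Nr1d1 window held CACGTG at 191 bases and the Tef window held it at 198 bases, while the Bmal1 window held TAGGTCA 16 bases before the start. CACGTT was also read on the opposite strand in the Cry2 window (212 bases before the start) and in the second Nr1d1 window (174 bases). The windows of Per1, Per3, Nr1d2, Dbp and Clock held none of these letters, which says nothing of more distant elements. Among 33469 such windows of the rat table, 5.59% held CACGTG, 4.07% CACGTT, 0.932% the D-box, 2.26% TAGGTCA and 1.59% TGACGTCA, so these matches are a description of the sequence only.

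The deposited values are log2 signals made with RMA, and array medians lay between 6.36 and 6.53. Among the lesions, lesion 2 of adenoma 3 stood apart: its mean correlation with the other lesions over all probe sets was 0.972, against 0.979 to 0.985 for the other 15. In that lesion Per2 was at 7.86 and Clock at 9.19, while the other lesions of adenoma 3 had 7.15 and 7.19 for Per2 and 9.64 and 9.56 for Clock. Lesions of 1 number were averaged before the groups were compared, and precision is limited by how few arrays there are. Of the gonadotroph markers, 5 of 6 were measured, with Cga, Gnrhr and Nr0b1 higher and the hormone genes Lhb and Fshb lower in the adenomas, and with a summed linear signal of 17660 to 20951 in adenomas and 7675 to 17054 in wild type. All 5 somatotroph markers were lower (3183 to 16416 in adenomas, 17064 to 22268 in wild type), 4 of 5 macrophage markers were higher (638 to 1521 in adenomas, 426 to 661 in wild type), and 3 of 5 markers of posterior lobe glia (Aqp4, Slc1a2 and Slc1a3) were lower (323 to 582 in adenomas, 575 to 1034 in wild type). All 3 corticotroph markers measured were lower (219 to 2420 in adenomas, 2760 to 6020 in wild type), as were 1 of 3 thyrotroph markers (349 to 1549 in adenomas, 2250 to 6162 in wild type) and 4 of 5 folliculostellate markers (509 to 894 in adenomas, 821 to 2768 in wild type), while 2 of 5 neuron markers were higher (3633 to 5303 in adenomas, 2124 to 3038 in wild type). The part of cell composition in the clock results was not tested, and in bulk tissue fewer cells of a type and less RNA per cell cannot be told apart.

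The comparison of adenomas with normal pituitaries asked whether the loop sits at another level in the tumors. Per2 and Clock were higher and Per3 and Nr1d1 were lower in adenomas, so the Per genes were split between the directions. The other 6 members, Per1, Cry1, Cry2, Nr1d2, Dbp and Tef, did not pass the test. That is 4 of 10 members at an adjusted p under 0.05 (limma, Benjamini-Hochberg over all probe sets), where 17.5% of all probe sets were called. By direction, 2 of 10 were higher against 8.49% of all probe sets, and 2 of 10 lower against 9.06%. The median log2 fold change was -0.13 over the members and -0.03 over all probe sets. The limma model fits a single variance to both groups, whereas for all 10 members the SD was larger in wild type, the smaller group. By the test with unequal variances, among the alternatives below, none of the 4 passed. Its adjusted p was 0.0985 for Per2, 0.134 for Clock, 0.186 for Per3 and 0.246 for Nr1d1. The test with unequal variances called 1924 of 29214 probe sets, where limma called 5127. Per3 and Nr1d1 were also lost by the authors' own test, which keeps equal variances, while Per2 and Clock passed it. The 4 calls therefore depend on the choice of test, and the part of the variance assumption in this was not tested.

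Per2, a repressor of CLOCK and BMAL1, had the smallest adjusted p of the members. Its log2 values in adenomas 1 to 9 were 7.13, 7.24, 7.40, 7.14, 7.06, 7.50, 7.38, 7.23 and 7.45, against 6.22, 7.07, 6.85, 6.65 and 6.75 in wild type 1 to 5. All adenoma values but that of adenoma 5 lay above every wild-type value, so the groups touched at a single animal. Per2 averaged 7.28 ± 0.16 in adenomas (SD, n = 9) and 6.71 ± 0.31 in wild type (SD, n = 5), a rise of 0.58 on the log2 scale (SE 0.12, 1.49-fold, adjusted p = 0.0045 by limma). Without lesion 2 of adenoma 3 the difference was 0.55 (adjusted p = 0.00541 by limma), and it stayed past the threshold with any single animal left out. The sample numbers in the labels begin with 08 or 09, a prefix of unstated meaning. The call held within prefix 09 but was lost within prefix 08 (difference 0.55, adjusted p = 0.206 by limma), which holds 5 adenomas and 2 wild-type pituitaries. It was also lost with adenomas of 7 or 8 months alone (difference 0.62, 0.486 by limma), a fit whose only adenomas were 4 and 6. That fit called 133 of 29214 probe sets. With so few animals, a lost call in either fit does not by itself show a smaller effect, here or for the genes below.

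Clock encodes the partner of BMAL1 on the E-box. Its values in adenomas 1 to 9 were 9.73, 9.67, 9.46, 9.57, 9.58, 9.49, 9.62, 9.54 and 9.68, against 9.38, 9.54, 9.08, 9.09 and 9.32 in wild type 1 to 5. The difference was small but the adenomas were tight, and 6 of 9 lay above all wild-type values. Clock averaged 9.59 ± 0.092 in adenomas (SD, n = 9) and 9.28 ± 0.20 in wild type (SD, n = 5), a rise of 0.31 (SE 0.082, 1.24-fold, adjusted p = 0.0173 by limma). Wild type 3 and 4 held the low end, and leaving out either moved the adjusted p to 0.0540 or 0.0570 (limma) with differences of 0.26 in both fits. The call was also lost within prefix 08 (difference 0.14, adjusted p = 0.520 by limma) and with adenomas of 7 or 8 months alone (difference 0.24, 0.753 by limma).

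Per3 is the Per gene that the loop can best do without in mice. Its values in adenomas 1 to 9 were 6.29, 7.01, 6.70, 6.99, 6.61, 7.89, 6.78, 6.98 and 7.09, against 7.04, 7.62, 8.92, 8.24 and 7.57 in wild type 1 to 5. Of the adenomas, 7 of 9 lay below every pituitary, and adenoma 6, at 7.89, lay among the wild-type values. Per3 averaged 6.93 ± 0.44 in adenomas (SD, n = 9) and 7.88 ± 0.72 in wild type (SD, n = 5), which is 1.94-fold lower in adenomas (log2 fold change -0.95, SE 0.28, adjusted p = 0.0273 by limma). Without wild type 3 the fold change was -0.70 and without wild type 4 it was -0.86, with adjusted p = 0.0789 and 0.0833 (limma). The call was also lost within prefix 08 (fold change -0.61, adjusted p = 0.199 by limma) and prefix 09 (fold change -1.06, 0.0735 by limma). It was lost too with adenomas of 7 or 8 months alone (fold change -0.44, 0.845 by limma).

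Nr1d1 encodes REV-ERB alpha, which represses Bmal1 and is itself read from E-boxes. Its values in adenomas 1 to 9 were 7.75, 8.28, 8.19, 8.44, 7.85, 8.81, 7.46, 7.76 and 8.30, against 10.00, 8.64, 9.70, 8.74 and 7.98 in wild type 1 to 5. The pituitaries had the largest SD of the 10 members, with wild type 5 lowest and wild type 1 highest, and 4 of 9 adenomas lay below all of them. Nr1d1 averaged 8.09 ± 0.42 in adenomas (SD, n = 9) and 9.01 ± 0.83 in wild type (SD, n = 5), which is 1.89-fold lower in adenomas (log2 fold change -0.92, SE 0.29, adjusted p = 0.0426 by limma). This call was close to the threshold and was lost in 10 of the 14 fits that left out 1 animal: without wild type 1, 3 or 4, or without adenoma 1, 2, 3, 5, 7, 8 or 9, with adjusted p up to 0.120 (limma). The fold changes in those fits ran from -0.99 to -0.67. The call was also lost with sex as a covariate (adjusted p = 0.0588 by limma) and with centred arrays (0.0606 by limma). The same held within prefix 08 (fold change -1.22, adjusted p = 0.107 by limma) and prefix 09 (fold change -0.73, 0.292 by limma). With adenomas of 7 or 8 months alone it was lost too (fold change -0.39, 0.871 by limma).

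**Figure D1:**
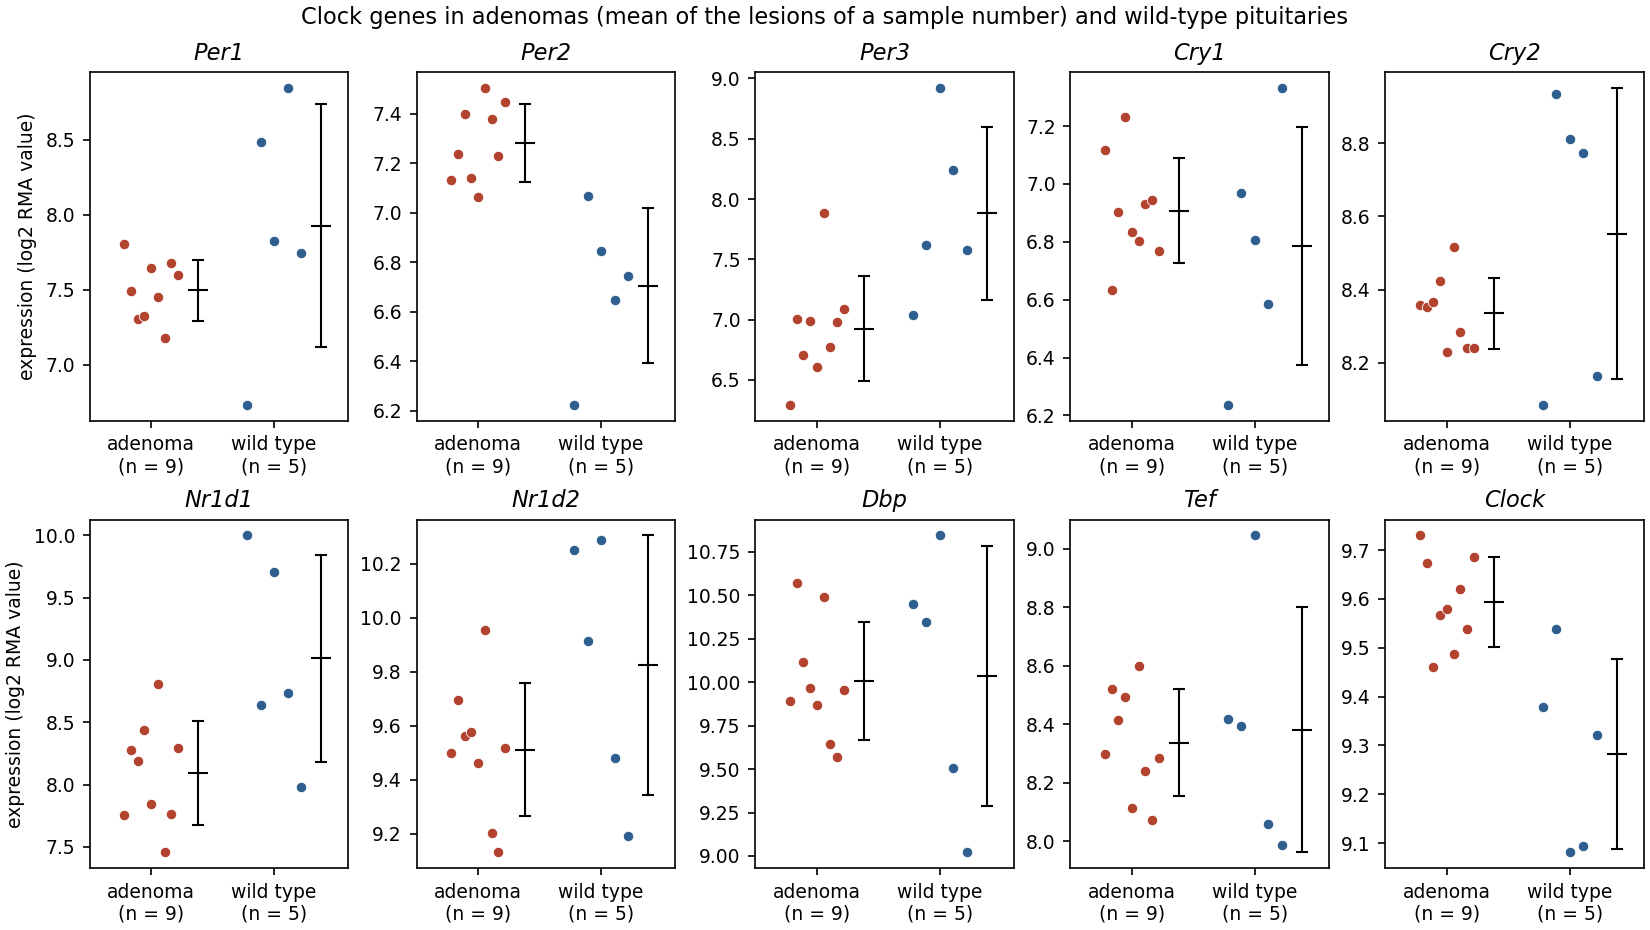
Log2 RMA expression of the 10 clock genes, with 1 panel per gene and its own vertical scale; red points are adenomas 1 to 9 (mean of the lesions of a sample number), blue points are wild type 1 to 5, and bars are the group mean ± SD. Per2 and Clock are higher and Per3 and Nr1d1 lower in adenomas, and in all 10 panels the wild-type points spread more widely.

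The repressors that did not pass the test had intervals that held differences of either sign. Per1 was at 7.18 to 7.81 in adenomas (median 7.49) and at 6.73, 8.48, 7.83, 8.84 and 7.74 in wild type 1 to 5, with a log2 fold change of -0.43 (95% interval -0.96 to 0.10, adjusted p = 0.250 by limma). Wild type 1 alone lay below all adenomas, and without it the fold change was -0.73 (adjusted p = 0.0109 by limma). Cry1, a cryptochrome that acts late in the cycle, was at 6.91 ± 0.18 in adenomas (SD, n = 9) and 6.79 ± 0.41 in wild type (SD, n = 5), a difference of 0.12 (95% interval -0.19 to 0.43). Cry2, its paralog, was at 8.33 ± 0.097 in adenomas and 8.55 ± 0.40 in wild type, a difference of -0.22 (95% interval -0.49 to 0.06, adjusted p = 0.257 by limma), and without wild type 1 it was -0.34 (adjusted p = 0.0499 by limma).

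Among the output genes, Dbp and Tef had nearly equal means in both groups. Dbp averaged 10.01 ± 0.34 in adenomas (SD, n = 9) and 10.03 ± 0.75 in wild type (SD, n = 5), a difference of -0.03 (95% interval -0.58 to 0.52). Tef averaged 8.34 ± 0.18 in adenomas and 8.38 ± 0.42 in wild type, a difference of -0.04 (95% interval -0.36 to 0.27). Nr1d2, the second REV-ERB gene, averaged 9.51 ± 0.25 in adenomas and 9.82 ± 0.48 in wild type, a difference of -0.31 (95% interval -0.69 to 0.06, adjusted p = 0.233 by limma). These intervals hold differences of either sign. None of the 10 members had groups that did not overlap at all, where 4.82% of all probe sets had none.

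Around the members, 20 of 27 other genes of the pathway had a probe set with their symbol, among them kinases, ubiquitin ligases and partners of the core proteins. Of these 20, 1 was higher (Ppara) and 1 lower (Usp2), with a median log2 fold change of -0.04, which is 2 of 20 called where 17.5% of all probe sets were. Usp2, a deubiquitinase whose transcript is a clock output, was at 7.05, 6.74, 6.75, 6.65, 7.22, 6.80, 6.67, 7.28 and 6.98 in adenomas 1 to 9, against 7.66, 8.52, 8.13, 8.05 and 7.66 in wild type 1 to 5. All 9 adenomas lay below every pituitary, a 2.14-fold lower level (log2 fold change -1.10, SE 0.15, adjusted p = 0.000301 by limma) that held with any single animal left out. Ppara, a nuclear receptor that both feeds and follows the clock in liver, was at 5.76 ± 0.23 in adenomas (SD, n = 9) and 5.31 ± 0.18 in wild type (SD, n = 5), a rise of 0.45 (SE 0.11, adjusted p = 0.0145 by limma), and without wild type 4 its adjusted p was 0.0506. Both means lay below the lowest array median (6.36). The Ppara call was also lost within prefix 08 (difference 0.47, adjusted p = 0.0777 by limma) and prefix 09 (difference 0.36, 0.119 by limma). With adenomas of 7 or 8 months alone it was lost too (difference 0.34, 0.638 by limma). Bmal1 and Npas2, the partner and the paralog of Clock, had differences of 0.09 (adjusted p = 0.732) and -0.05 (adjusted p = 0.897, both limma).

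**Figure D2:**
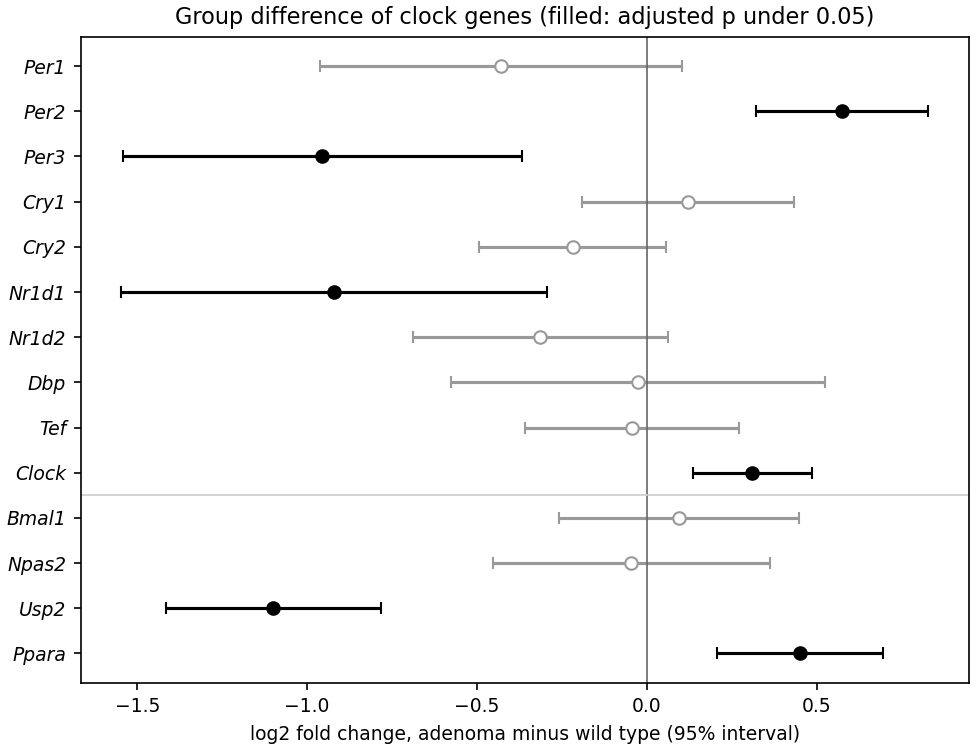
Log2 fold change, adenoma minus wild type, with 95% intervals (horizontal axis) for the 10 members (above the grey line) and for Bmal1, Npas2, Usp2 and Ppara; filled points have a limma adjusted p under 0.05. Per2, Clock and Ppara lie right of 0, and Per3, Nr1d1 and Usp2 lie left of it.

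Lesions of 1 rat share a time of collection if a sample number is a rat. They also share age, sex and number prefix, and these cannot be told apart here from the time of collection. Such lesions show which clock transcripts differ between rats by more than between lesions of a rat. An F test between the 9 numbers over the 16 lesions (limma, 7 residual degrees of freedom) called Nr1d1, Dbp and Per3, 3 of 10 members, where 11% of all probe sets were called. These 3 genes take part in the output arm and the Per family, and the other members were not called. The ratio of the SD between numbers to the SD within a number had a median of 1.80 over the members and 1.06 over all probe sets.

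Nr1d1 separated the rats most. Its values were 7.82 and 7.69 in the lesions of adenoma 1, 8.22 and 8.33 in those of adenoma 2, 8.05, 8.40 and 8.12 in those of adenoma 3, 7.80, 7.84 and 7.89 in those of adenoma 5, and 8.29 and 8.30 in those of adenoma 9. The lesions of adenomas 5 and 9 lay close together, while the single lesions of adenomas 4, 6, 7 and 8 were at 8.44, 8.81, 7.46 and 7.76. The SD was 0.42 between numbers and 0.11 within them, a ratio of 3.73 (F = 13.6, adjusted p = 0.00623 by limma).

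Dbp encodes the D-box activator that is among the strongest rhythmic transcripts of peripheral tissues. It was at 9.89 and 9.90 in the lesions of adenoma 1, 10.46 and 10.67 in those of adenoma 2, 10.04, 10.18 and 10.13 in those of adenoma 3, 10.01, 9.87 and 9.74 in those of adenoma 5, and 9.90 and 10.01 in those of adenoma 9. Adenoma 2 held the high end with the single lesion of adenoma 6 (10.49), and adenomas 7 and 8 the low end (9.64 and 9.57). The ratio of the SDs was 3.26 (F = 11.1, adjusted p = 0.0105 by limma), although Dbp had the smallest group difference of all members.

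Per3 was at 6.37 and 6.21 in the lesions of adenoma 1, 7.04 and 6.97 in those of adenoma 2, 6.63, 6.97 and 6.51 in those of adenoma 3, 6.54, 6.41 and 6.87 in those of adenoma 5, and 7.04 and 7.14 in those of adenoma 9. The ratio of the SDs was 2.34 (F = 8.73, adjusted p = 0.0189 by limma). Without adenoma 1 the call of Per3 was lost, and without adenoma 2 that of Dbp, while all 3 calls held without lesion 2 of adenoma 3. At the other end, Per2 (ratio 0.676), Clock (0.665) and Cry2 (0.524) differed at least as much between lesions of a rat as between rats, with adjusted p from 0.631 to 0.919 (limma). For Per2, Clock and Cry2 the lesion that stood apart was the extreme one of adenoma 3, with Cry2 at 8.64 beside 8.27 and 8.19. Of the 20 other pathway genes, the F test called 5 (11% of all probe sets), namely Bhlhe40, Bhlhe41, Btrc, Gsk3b and Prkaa1.

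**Figure D3:**
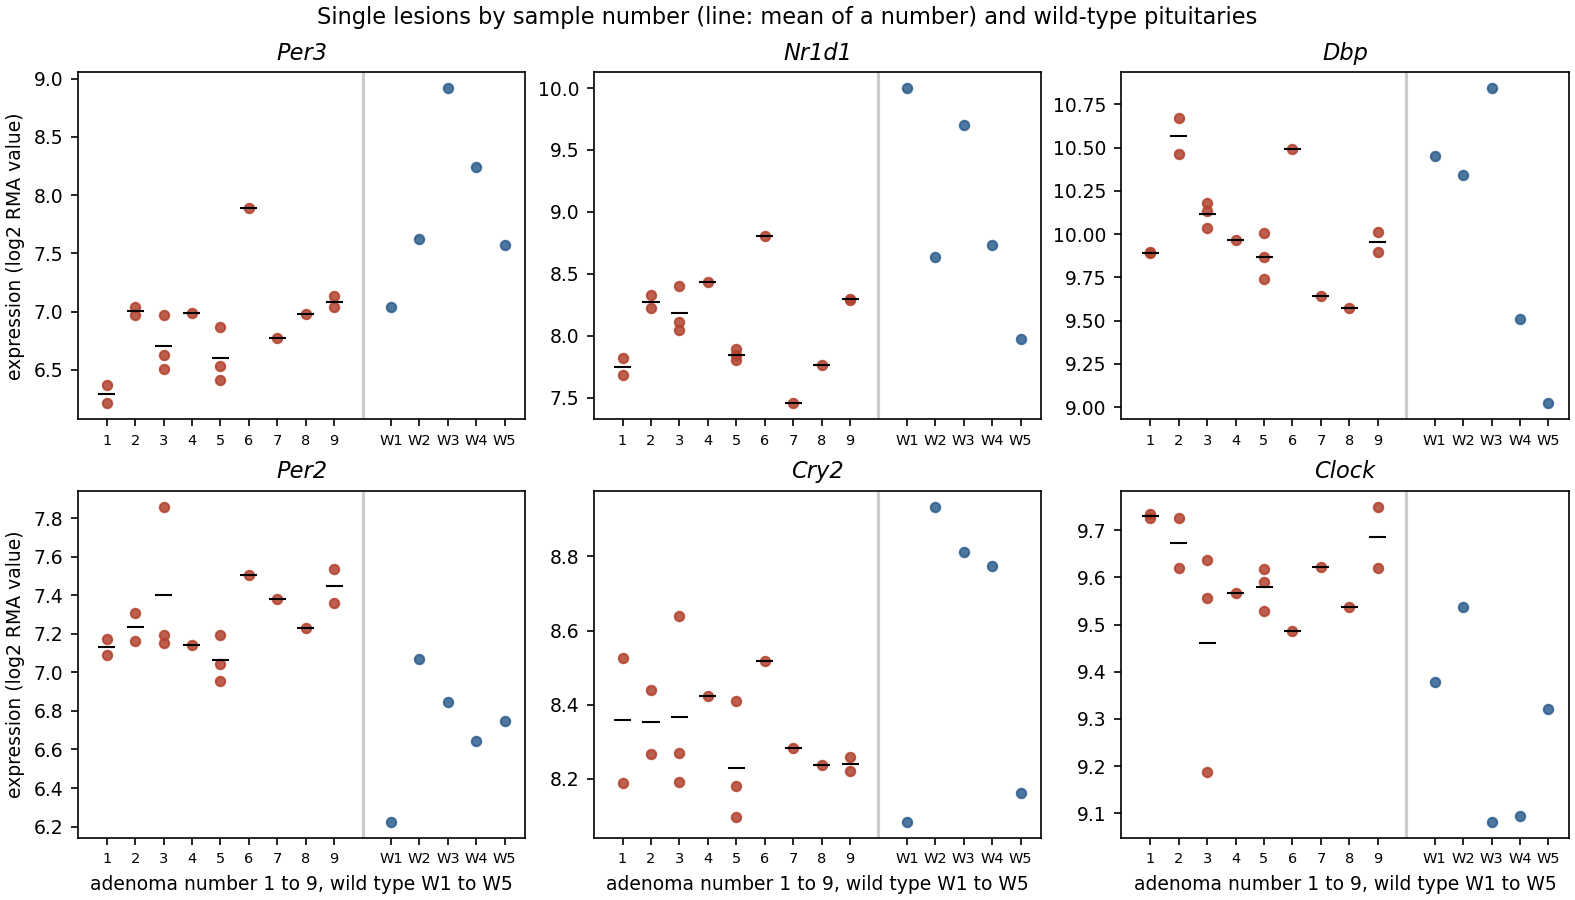
Log2 RMA expression of 6 clock genes in single lesions (red, by adenoma number 1 to 9, with a line at the mean of a number) and in wild type 1 to 5 (blue, W1 to W5); each panel has its own vertical scale. For Per3, Nr1d1 and Dbp (upper row) the numbers differ by more than the lesions of a number do. The Per3 lesions of adenoma 3 (6.51 to 6.97) and of adenoma 5 (6.41 to 6.87) still lie apart. For Per2, Cry2 and Clock (lower row) the lesions of adenoma 3 span much of the range of all lesions.

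All 10 members had a smaller SD over the 9 adenomas than over the 5 pituitaries. The wild-type SD was above the adenoma SD in 10 of 10 members, where this held for 71.5% of all probe sets, and the ratio of the wild-type SD to the adenoma SD had a median of 2.17 over the members and 1.38 over all probe sets. Averaging lesions lowers the adenoma SD, and with 1 lesion per number the count was again 10 of 10, against 60.1% of all probe sets. Cry2 had the highest ratio (4.12, reached by 1.52% of all probe sets), then Per1 (3.98, reached by 1.72%), and the other 8 members lay between 1.64 and 2.30. With 1 lesion per number the ratios were 2.55 for Cry2, 3.05 for Per1, 1.21 for Per2 (1.99 with averaged lesions) and 1.29 for Clock (2.13 with averaged lesions), and those of the other 6 lay between 1.65 and 2.43. No test was run on the SDs.

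The pituitaries did not share 1 order across the loop. Wild type 1 was the lowest pituitary for Per1 (6.73), Per2 (6.22), Per3 (7.04), Cry1 (6.24) and Cry2 (8.08) and the highest for Nr1d1 (10.00). Wild type 5 was the lowest for Nr1d1 (7.98), Nr1d2 (9.19), Dbp (9.02) and Tef (7.99), and the highest for Cry1 (7.33) and Bmal1 (8.63). Wild type 3 had the highest Per3 (8.92), Nr1d2 (10.29), Dbp (10.84) and Tef (9.05), and the lowest Bmal1 (7.18) and Clock (9.08). No adenoma came near these extremes of Bmal1, which lay between 7.75 and 8.08 in all 9 adenomas.

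The immediate early genes, which share with Per1 the response to cAMP, spread in the same pituitaries. Of 14 listed, 12 were measured, and all 12 had a wild-type SD above the adenoma SD, with a median ratio of 3.81. Their summed linear signal was 2895 to 3423 in the adenomas, against 1817, 6227, 4705, 11637 and 2285 in wild type 1 to 5, so the 2 pituitaries with the highest sums (wild type 4 and 2) were also those with the highest Per1. Of the 12, 1 was called (17.5% of all probe sets), Egr1, at a log2 fold change of -1.36 (adjusted p = 0.0243 by limma). For 15 genes that glucocorticoids induce, the summed signal was 5089 to 7906 in adenomas and 5054 to 10455 in wild type, and 1 of 15 was called (17.5% of all probe sets), Cdkn1a, which was higher. Of these 15, 8 had a wild-type SD above the adenoma SD, where 71.5% of all probe sets did. Their median ratio was 1.13, against 1.38 over all probe sets. The part of either signal in the Per1 values was not tested.

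**Figure D4:**
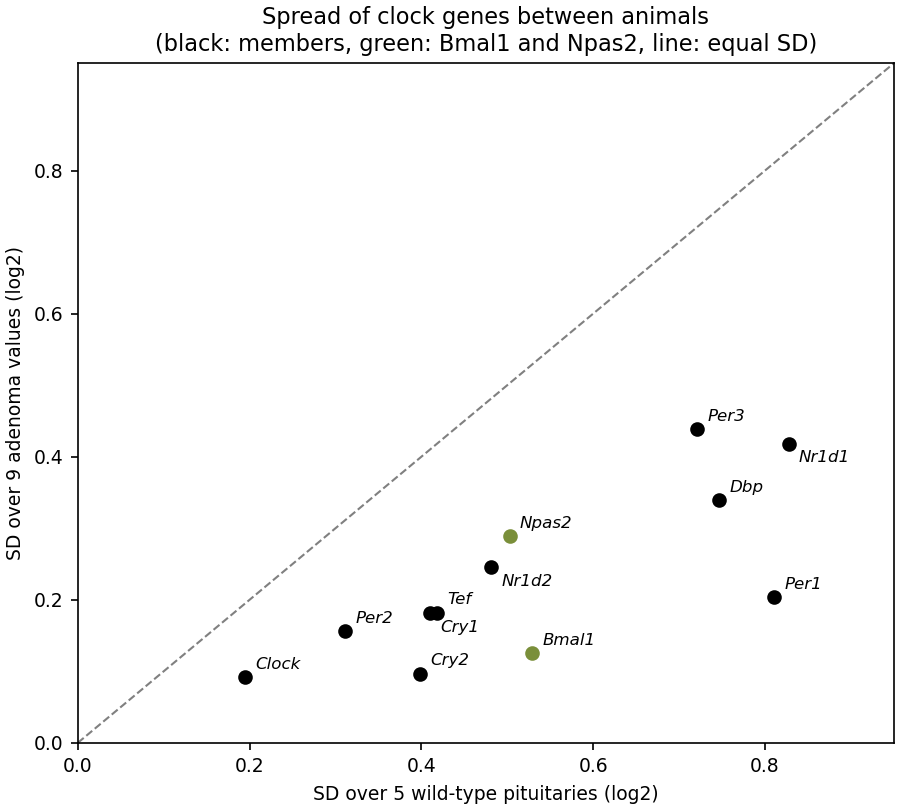
SD of log2 expression between animals, over 9 adenoma values (vertical axis) and over 5 wild-type pituitaries (horizontal axis), for the 10 members (black) and for Bmal1 and Npas2 (green); the dashed line marks equal SDs. All points lie below the line, with Per1 farthest from it among the members, while Cry2 and Per1 have the highest ratios of the wild-type SD to the adenoma SD among them.

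Arrays were then set out by phase, as Per and Dbp against Clock. The index was the mean deviation of Per1, Per2, Per3 and Dbp from their group means minus the deviation of Clock, and it is given as a description with no test. In adenomas 1 to 9 it was -0.28, 0.07, 0.09, -0.05, -0.12, 0.51, -0.21, -0.01 and 0.002 on the log2 scale, against -0.62, -0.01, 0.68, 0.36 and -0.40 in wild type 1 to 5. By this index the adenomas did not fall into opposite sets: adenoma 6 stood 0.42 above the next, and the other 8 ran from -0.28 to 0.09. Over the 14 animals as deviations, r of Dbp was -0.25 with Per1, 0.10 with Per2 and 0.34 with Per3, given with no test. Opposite movements of these genes can therefore cancel in the index. Over single lesions it ran from -0.37 to 0.51, and the largest gap, 0.33, set adenoma 6 and the deviating lesion 2 of adenoma 3 (0.40, with a Clock deviation of -0.41) above the other 14. The SD of the index was 0.23 in adenomas and 0.53 in wild type. Because each group was centred on its own mean, the index cannot show an offset in phase between the groups. Centred over all 14 animals instead, the index ran from -0.47 to 0.32 in adenomas and from -0.29 to 1.01 in wild type. That version also takes in the group difference of each gene, whatever its source.

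The relation of each gene to Clock was tested over the 9 adenomas in 4 correlations, with two-sided exact permutation p-values and Benjamini-Hochberg adjustment over the 4. For Per1 Pearson's r was 0.44 (exact permutation p = 0.238, adjusted p = 0.475) and Spearman's rho 0.43 (exact permutation p = 0.250, adjusted p = 0.708). For Per2 r was -0.32 (exact permutation p = 0.395, adjusted p = 0.526) and rho -0.30 (exact permutation p = 0.437, adjusted p = 0.708). For Per3 r was -0.44 (exact permutation p = 0.234, adjusted p = 0.475) and rho -0.15 (exact permutation p = 0.708). For Dbp r was -0.10 (exact permutation p = 0.792, adjusted p = 0.792) and rho -0.15 (exact permutation p = 0.708). So 3 of 4 genes had a negative sign and none passed the test. Without adenomas 1 and 3, the farthest from the median of Clock, r was -0.03 for Per1, 0.0017 for Per2, -0.49 for Per3 and 0.03 for Dbp. The number prefixes in the labels, 08 and 09, hold 5 and 4 adenomas, too few for a correlation within a prefix.

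Other members did move together among the adenomas. Over all 55 pairs of the 10 members and Bmal1, 5 passed an adjusted p of 0.05 by Pearson's r, all within the set of Cry2, Nr1d1, Nr1d2, Dbp and Tef. The pair Nr1d2 and Dbp had r = 0.91 (exact permutation p = 0.00146, adjusted p = 0.0352), rho = 0.97 (exact permutation p = 0.000165, adjusted p = 0.00455) and r = 0.86 without the 2 adenomas farthest from the median of Nr1d2. Dbp and Tef, related factors of the PAR bZIP family, had r = 0.85 (exact permutation p = 0.00375, adjusted p = 0.0412), rho = 0.93 (exact permutation p = 0.00075, adjusted p = 0.0137) and r = 0.73 without 2. Nr1d2 and Tef had r = 0.86 (exact permutation p = 0.00256, adjusted p = 0.0352), rho = 0.97 (exact permutation p = 0.000165, adjusted p = 0.00455) and r = 0.67 without 2. The remaining pairs passed by r but not by rho: Cry2 and Tef had r = 0.89 (exact permutation p = 0.00162, adjusted p = 0.0352) and rho = 0.87 (exact permutation p = 0.00451, adjusted p = 0.0620), and Nr1d1 and Nr1d2 had r = 0.88 (exact permutation p = 0.00195, adjusted p = 0.0352) and rho = 0.83 (exact permutation p = 0.00827, adjusted p = 0.0909). Without 2 adenomas r was 0.81 for Cry2 and Tef and 0.68 for Nr1d1 and Nr1d2.

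For Bmal1, the target that REV-ERB represses, no relation with these genes passed the test in the adenomas, with r of -0.15 with Nr1d1, -0.04 with Nr1d2, -0.11 with Dbp and -0.06 with Tef over 9 values (exact permutation p from 0.699 to 0.924). Over all 14 animals as deviations from their group mean the same coefficients were -0.51, -0.60, -0.71 and -0.69, given with no test. Wild type 3 and 5 lay at opposite ends: the mean deviation of Nr1d1, Nr1d2, Dbp and Tef was 0.66 and that of Bmal1 -0.65 in wild type 3, and they were -0.77 and 0.79 in wild type 5.

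**Figure D5:**
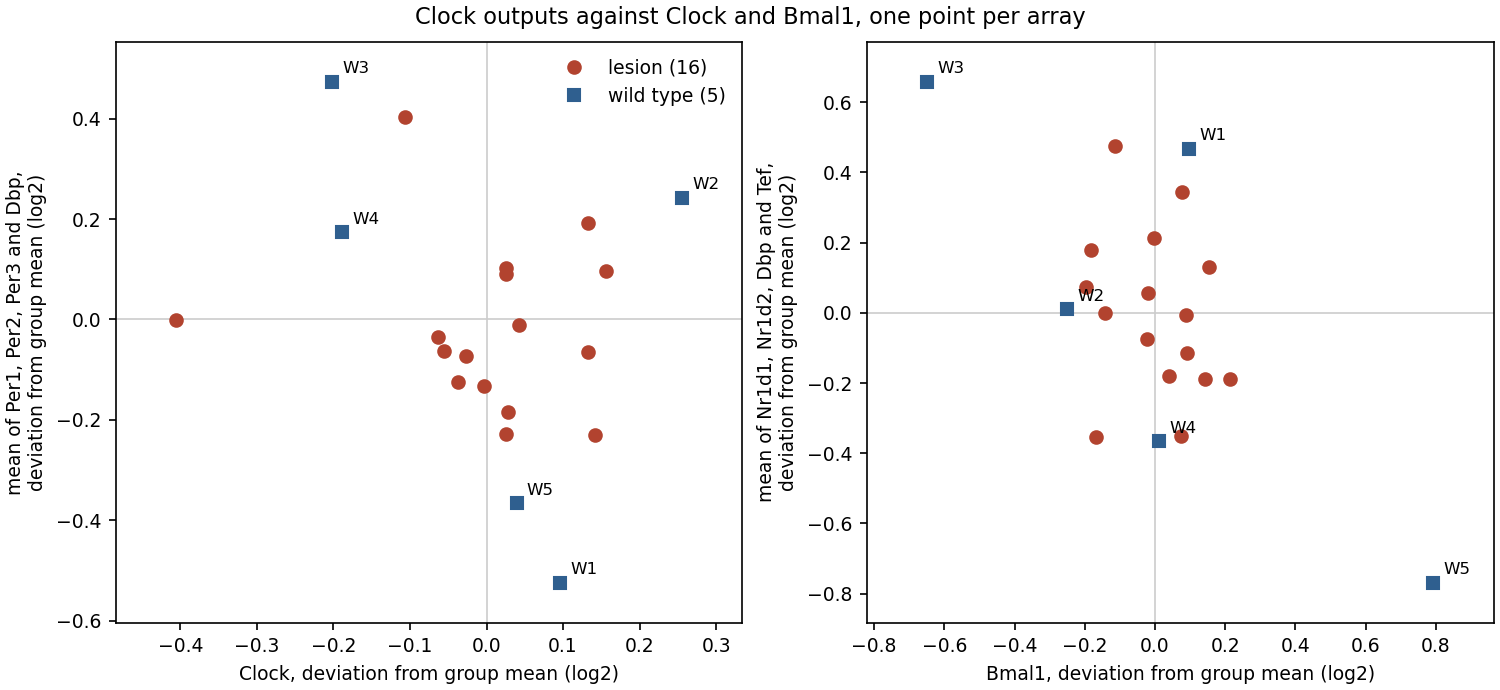
Deviations from the group mean on the log2 scale, with 1 point per array (red circles for the 16 lesions, blue squares for wild type 1 to 5, W1 to W5); left, the mean of Per1, Per2, Per3 and Dbp against Clock, and right, the mean of Nr1d1, Nr1d2, Dbp and Tef against Bmal1. In the left panel lesion 2 of adenoma 3 (Clock deviation -0.41) and adenoma 6 (mean deviation 0.40) lie outside the cloud of the other 14 lesions, and W3 and W5 lie at opposite corners of the right panel.

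Sex, age and number prefix were examined for the same genes. With group in the model, 0 of 10 members differed between males and females (limma, 0% of all probe sets called), and at an unadjusted p under 0.05 only Cry2 did, 0.25 higher in males, where 9.86% of all probe sets did. The interaction of sex and group called none (limma, 0% of all probe sets called), with Per1, Per3 and Cry2 under an unadjusted p of 0.05, where 6.78% of all probe sets were. For Cry2 the adenoma minus wild-type difference was -0.52 in males and 0.22 in females (interaction -0.74, unadjusted p = 0.000133, adjusted p = 0.197 by limma). The 9 adenomas lay between 8.23 and 8.52 whatever the sex, against 8.93, 8.81 and 8.77 in male pituitaries and 8.08 and 8.16 in female pituitaries. Per1 showed -0.91 in males and 0.27 in females (adjusted p = 0.576 for the interaction by limma). The summed immediate early signal of the pituitaries was split in the same way, with 6227, 4705 and 11637 in males and 1817 and 2285 in females.

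Over the 9 adenomas no member had a slope with age past the threshold (limma, 0.00342% of all probe sets called). At an unadjusted p under 0.05 there were 4 of 10, against 11.8% of all probe sets, namely Nr1d1 (-0.17 per month), Nr1d2 (-0.09), Tef (-0.08) and Cry2 (-0.05), with adjusted p from 0.222 to 0.337 (limma). All 4 slopes were negative, and 4 of the 9 adenomas were 12 months old. Between number prefixes, 09 against 08 with group in the model, 0 of 10 members were called (limma, 8.27% of all probe sets called), and Per3 was the only one at an unadjusted p under 0.05 (25.8% of all probe sets), at 0.62 higher under 09 (adjusted p = 0.0915 by limma). Within prefix 09 and within prefix 08, the adenoma minus wild-type differences were 0.64 and 0.55 for Per2, 0.42 and 0.14 for Clock, -1.06 and -0.61 for Per3, and -0.73 and -1.22 for Nr1d1. Each kept its sign within both prefixes, while Dbp had 0.12 within 09 and -0.32 within 08.

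Finally, the probe sets of other genes were ranked by their resemblance to the mean deviation of Per1, Per2, Per3 and Dbp over the 14 animals, as a description with no test. The 8 most alike were Slc1a2 (r = 0.94), Akap13 (0.90), Map2k6 (0.89), Ak4 (0.89), Farp1 (0.89), Smpd3 (0.88), Fry (0.88) and Tmem39b (0.88). Over the 9 adenomas alone, r for these genes ran from 0.55 (Ak4) to 0.87 (Fry). Of the 8, 7 (all but Farp1) were also lower in adenomas, where 9.06% of all probe sets were called lower. Their log2 fold changes ran from -1.47 for Slc1a2, a glutamate transporter that stands in the posterior lobe list above, to -0.26 for Tmem39b. At the other end were Gsx2 (r = -0.87), Pou3f2 (-0.86), Snap29 (-0.86) and Or5w13b (-0.86), none of them called between the groups.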

How the data were processed

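The authors hybridized RNA of macrodissected pituitary tissue to Affymetrix Rat Gene 1.0 ST arrays and deposited log2 expression values made with RMA in Affymetrix Expression Console (versions and genome build not given in the sources used here). Because RMA forces a common distribution on the arrays, a change of most genes in 1 direction would not be seen, and folds of dim probe sets are narrowed. Scanner files were not used here. Symbols came from the platform annotation, in which 15310 of 29214 probe sets carry 1 symbol. The members and all gene lists were chosen with earlier results of these data known.

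Lesions of 1 sample number were averaged, which gave 9 adenoma and 5 wild-type values, and sex, age and number prefix came from the labels. limma 3.58.1 in R 4.3.3 fitted 1 model per probe set with group as the only term (12 residual and 3.21 prior degrees of freedom), with Benjamini-Hochberg adjustment over all 29214 probe sets. A call is an adjusted p under 0.05. The fit recovered known changes in simulated data that gave both groups the same SD and held changes larger than those of the called members. That simulation does not cover the unequal SDs of the members. The labels call the samples biological replicates. The text names all members, Bmal1 and Npas2, called pathway genes, and the 8 most like and 4 most unlike genes in correlation with the mean of Per1, Per2, Per3 and Dbp. Pathway genes without a matching symbol were not analysed here. Correlations used scipy 1.17.1. The authors' own test was a t-test, which is among the alternatives, together with other groupings of lesions, batches, normalizations, filters and thresholds, and single animals left out. Leaving out lesion 2 of adenoma 3 and taking 1 lesion per number were chosen after seeing the data.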

Additional observations from a re-analysis of the deposited data

Results flagged for a closer look

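Per3 in adenoma 6 was at 7.89, apart from the other 8 adenomas, of which the next was at 7.09. The gap was 0.501 of the range of the group, above Dixon's limit for 9 values. Adenoma 6 was a single lesion from an animal of 8 months. It also had the highest Nr1d1 (8.81), Nr1d2 (9.96), Cry2 (8.52), Tef (8.60) and Per2 (7.50) of the adenomas, none of which passed the same limit. Of 28 groups of values examined this was the only one, and chance alone puts about 1 in 20 groups past the limit.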

How the results depend on the processing

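Of 10 members, 4 were called between adenomas and wild type. The count was 0 within prefix 08 and 2 within prefix 09 (Per2 and Clock), 0 with adenomas of 7 or 8 months alone, 2 with the methods' t-test with equal variances and 0 with unequal variances (4 and 3 at the unadjusted threshold), 1 at an adjusted p under 0.01 (Per2), and 0 with a fold over 2 added. The methods' t-test gave adjusted p = 0.0555 for Per3 and 0.0786 for Nr1d1, and the one with unequal variances gave 0.0985 for Per2, 0.134 for Clock, 0.186 for Per3 and 0.246 for Nr1d1. The count of members ran from 1 (without wild type 3 or wild type 4) to 5 (without wild type 1, with Per1 and Cry2 gained and Nr1d1 lost) with 1 animal left out. The fits within a prefix and with adenomas of 7 or 8 months alone hold fewer samples, and the cause of the other changes was not tested. With the replicate number of the labels as a block the count was 2 (Per2 and Per3). Because these numbers belong to lesions, that fit also used single lesions in place of means, and its contrast rests on the 5 lesions numbered 1 to 5, which come from adenomas 1, 2 and 3 and include lesion 2 of adenoma 3. Samples that share a number deviated together weakly or not at all (correlations of 0.203, 0.194, 0.0952, 0.0839 and -0.0531), and 3 of 10 correlated best with their own number, so the numbers do not pair them. Of the other pathway genes, 2 were called, and the count was 1 within prefix 08, 0 with adenomas of 7 or 8 months alone, 4 with quantile normalization, 1 at an adjusted p under 0.01, 1 with a fold over 2 added, and 1 (without wild type 4) to 3 with 1 animal left out. The 3 members called between sample numbers were 2 or 3 with 1 number left out. With sex and prefix fitted together, 1 member (Per3) was called between prefixes. Sex and age called 0 members under all alternatives tried for them.

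Per2, Clock, Per3, Nr1d1, Usp2 and Ppara had the same sign in all alternatives. Genes with differences near 0 turned sign. Within prefix 09 the difference was -0.046 for Cry1, 0.12 for Dbp and -0.00037 for Bmal1, and Npas2 had 0.32 within prefix 08. Dbp was at 0.068 with sex as a covariate and 0.017 with centred arrays. With adenomas of 7 or 8 months alone Dbp was at 0.19 and Tef at 0.17, and with the replicate block Dbp was at 0.16 and Tef at 0.023. Npas2 was at 0.012 with lesions as independent samples, 0.021 with array weights and 0.22 with the replicate block. With 1 animal left out, the differences ran from -0.28 to 0.18 for Dbp, -0.14 to 0.12 for Tef, -0.016 to 0.26 for Cry1, -0.067 to 0.29 for Bmal1 and -0.17 to 0.13 for Npas2. The correlation of Dbp with Clock was 0.059 over 16 lesions and 0.086 with centred arrays, and from -0.41 to 0.17 with 1 adenoma left out. That of Per1 was -0.085 over 14 deviations. The signs of these near-0 values are not settled by 14 animals.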
